A study of Mus musculus with 6 samples.

Results

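Here 9 genes of the AP-1 and BATF family of transcription factors were followed: Fos, Fosb, Fosl2, Jun, Junb, Jund, Batf, Batf3 and Atf3. They were chosen by mouse gene symbol, matched through Ensembl gene identifiers, and all 9 were found among the 49315 genes counted. The study sequenced RNA from splenic CD4 T cells of CBir1 TCR Tg mice, whose transgenic T cell receptor recognises the microbial flagellin CBir1. The strain of all 6 libraries was C57BL/6. For 5 libraries, CD45.1 CBir1 TCR Tg CD4+CD44- donor cells went into CD45.2 recipients on day 0, and the recipients were immunized with 50 µg CBir1 flagellin and 1 µg CT on days 1 and 7. In the groups MEP1+CMC, MEP1+Metformin, MEP1+Rapamycin and MEP1+Metformin+Rapamycin, 3 µg MEP1 was given on days 28 and 35, each time with 5 days of injections of the vehicle CMC, metformin, rapamycin or both drugs, always in CMC. The No treatment group had neither MEP1 nor drugs in that period. By the labels, all 5 groups were challenged with 3 µg MEP1 on day 56, and the donor cells left in the spleen were sorted on day 63. The naïve CD4 control was made from CBir1 TCR Tg CD4 T cells of the same strain and tissue, and no transfer or treatment specific to it is given. Each condition had 1 library, and the number of mice behind a library is not given. Animal ages are not given in the labels.

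AP-1 is a pair of basic leucine zipper proteins, usually a FOS protein with a JUN protein, that binds short DNA sites after antigen receptor and MAP kinase signals. BATF and BATF3 pair with JUN proteins too, and BATF-JUN pairs bind composite sites with IRF4 or IRF8 in T cells, where they take part in effector and helper differentiation. Many FOS, JUN and ATF3 transcripts are immediate early genes. They also rise within minutes when tissue is dissociated and cells are sorted, and metformin acts on mitochondrial respiration while rapamycin inhibits the kinase mTOR.

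Total counts ran from 26139000 in the naïve CD4 control to 60622310 in No treatment. The No treatment file has a column header that reads "No-challenge", against its labels and the stated challenge, and the labels were followed. The 13 CD4 T cell identity genes were detected in all 6 libraries and summed to between 8713 and 13073 TMM CPM, which is counts scaled to a common library size by the TMM method. Genes of 5 rRNA-like loci took 15.4% of the naïve counts and 1.00% to 3.13% elsewhere. Xist, the X-inactivation RNA, was at 262 TMM CPM in MEP1+CMC, 43.1 in the naïve CD4 control, 24.2 in No treatment and 0.218 to 0.486 in the 3 drug libraries. Xist therefore moved with the difference between MEP1+CMC and every drug library. It also moved with the differences of No treatment from MEP1+CMC and from every drug library. What sets these libraries apart in Xist was not tested. In bulk RNA, fewer cells of a type and less RNA per cell cannot be told apart.

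Promoters are shown first for Fos, Fosb, Jun, Junb and Atf3, the 5 genes that passed both the filter on low levels and the 2-fold rule described below in at least 1 of 7 pairs of libraries, because several FOS, JUN and ATF genes carry binding sites for their own family. Each is the 250 bases before the transcription start in RefSeq, build GRCm38.p6, written 5′ to 3′ on the gene's strand. Capitals mark matches, on either strand, to TGACATCA or to TGACG, the start of the CRE site TGACGTCA.
Fos: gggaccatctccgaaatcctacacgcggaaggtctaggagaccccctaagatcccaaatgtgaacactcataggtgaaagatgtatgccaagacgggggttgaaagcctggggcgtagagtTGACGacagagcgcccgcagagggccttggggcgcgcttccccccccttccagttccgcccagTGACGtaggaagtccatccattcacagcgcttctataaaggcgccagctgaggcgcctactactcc
Fosb: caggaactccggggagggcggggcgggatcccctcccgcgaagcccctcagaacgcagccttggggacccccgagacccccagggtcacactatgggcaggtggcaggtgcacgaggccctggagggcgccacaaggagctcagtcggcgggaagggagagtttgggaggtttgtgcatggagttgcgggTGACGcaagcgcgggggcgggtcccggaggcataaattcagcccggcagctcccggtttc
Jun: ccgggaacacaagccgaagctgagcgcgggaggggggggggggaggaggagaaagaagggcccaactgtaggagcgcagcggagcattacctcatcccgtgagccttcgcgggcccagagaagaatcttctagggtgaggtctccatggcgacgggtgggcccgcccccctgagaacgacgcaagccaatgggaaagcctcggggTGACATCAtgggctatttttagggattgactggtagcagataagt
Junb: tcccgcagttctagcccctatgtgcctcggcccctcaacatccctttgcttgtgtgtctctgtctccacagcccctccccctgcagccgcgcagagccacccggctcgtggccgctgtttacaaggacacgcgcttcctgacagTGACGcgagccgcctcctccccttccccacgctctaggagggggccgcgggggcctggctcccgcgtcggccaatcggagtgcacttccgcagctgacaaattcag
Atf3: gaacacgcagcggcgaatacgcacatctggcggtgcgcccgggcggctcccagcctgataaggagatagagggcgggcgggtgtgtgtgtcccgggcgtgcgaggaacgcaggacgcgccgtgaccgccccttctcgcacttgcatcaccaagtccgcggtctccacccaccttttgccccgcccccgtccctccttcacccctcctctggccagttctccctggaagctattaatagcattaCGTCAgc
The windows are Fos at chr12:85473640-85473889 on the plus strand, and Fosb at chr7:19310046-19310295, Jun at chr4:95052223-95052472, Junb at chr8:84978749-84978998 and Atf3 at chr1:191183334-191183583 on the minus strand. The Fosb and Atf3 windows include 6 and 7 bases that the deposited gene models count as exon. The Atf3 window lies inside the deposited gene, which runs to chr1:191218039, so the RefSeq start used here is not the deposited one. TGACG stood 129 and 66 bases before the start of Fos, 60 before Fosb and 106 before Junb. In Atf3 it lay on the opposite strand, 7 bases before the start. Jun held TGACATCA 45 bases before its start. Over all 9 genes, 5 windows held TGACG (the fifth was Batf), against 17.8% of 32851 RefSeq windows of the same length, and 1 held TGACATCA, against 2.93%. The full site TGACGTCA and the AP-1 site TGANTCA were in 0 of 9, against 1.55% and 6.75% of all windows. Among the windows not printed, all 250 bases for Fosl2, 163 for Batf3 and 51 for Batf were exon in the deposited gene models. The Jund window ended at chr8:70697738, before the deposited gene start at 70698949. A match describes letters only.

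Junb was the highest of the 9 genes per exon length in every library, at 1021 to 2608 TMM CPM per kb. Its part of the summed per-kb level of the 9 genes was 66.9% in the naïve CD4 control, 64.4% in No treatment, 55.7% in MEP1+CMC, 50.3% in MEP1+Metformin, 40.8% in MEP1+Rapamycin and 47.6% in MEP1+Metformin+Rapamycin. The summed level itself was 2202 TMM CPM per kb in the naïve CD4 control, 4049 in No treatment, 3796 in MEP1+CMC, 2994 in MEP1+Metformin, 2710 in MEP1+Rapamycin and 2144 in MEP1+Metformin+Rapamycin. Fos and Jun together made up a larger part of the sum in the transferred cells: Fos went from 7.83% in the naïve library to between 11.5% and 22.9%, and Jun from 5.17% to between 12.1% and 21.1%. Fosb, Fosl2, Batf3 and Atf3 stayed at or below 13.6 TMM CPM per kb in all libraries.

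**Figure D1:**
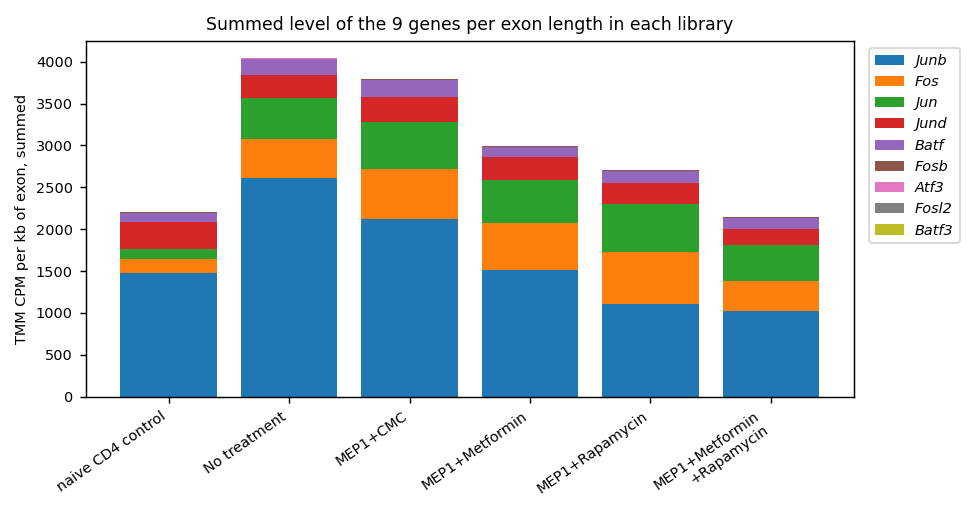
Summed level of the 9 genes in each of the 6 libraries, as TMM CPM per kb of exon (bars, 1 library each), split by gene. Junb makes up 66.9% of the naïve bar and 40.8% of the MEP1+Rapamycin bar.

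Among the FOS genes, which encode the partners that need a JUN protein to bind DNA, Fos was the most abundant. Fos (chr12:85473890-85477273, plus strand) was at 406 TMM CPM in the naïve CD4 control, 1097 in No treatment, 1424 in MEP1+CMC, 1323 in MEP1+Metformin, 1461 in MEP1+Rapamycin and 848 in MEP1+Metformin+Rapamycin. All 5 transferred libraries stood above the naïve one, and the library with both drugs was the lowest of them. Fosb (chr7:19302696-19310051, minus strand), another immediate early FOS gene, was at 3.45, 23.7, 40.9, 41.8, 85.0 and 29.9 TMM CPM in the same order of libraries. Its MEP1+Rapamycin value was 2.08-fold the MEP1+CMC value, and MEP1+CMC and MEP1+Metformin did not differ beyond counting error. Fosl2 (chr5:32135801-32157842, plus strand), which encodes FRA-2, was at 6.30, 5.80, 9.69, 8.98, 8.12 and 6.04 TMM CPM. Its highest and lowest libraries were 1.67-fold apart, and 4 of its 5 neighbouring pairs of libraries, ordered by level, had counting intervals that included no change.

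The JUN genes encode the obligate partners, of which c-JUN is the strongest activator and JUNB and JUND can restrain it. Jun (chr4:95049034-95052222, minus strand, 1 exon) was at 363 TMM CPM in the naïve CD4 control, 1562 in No treatment, 1789 in MEP1+CMC, 1652 in MEP1+Metformin, 1823 in MEP1+Rapamycin and 1362 in MEP1+Metformin+Rapamycin. Like Fos, it was lowest in the naïve library and, among transferred cells, lowest with both drugs. Junb (chr8:84974484-84978718, minus strand) was at 3389, 6001, 4868, 3466, 2544 and 2349 TMM CPM in that order. The 5 transferred libraries thus ran downward from No treatment through MEP1+CMC and metformin to the rapamycin libraries, which lay below the naïve level. With library totals only, the rapamycin libraries came out above it, at log2 ratios of 0.28 and 0.12. Jund (chr8:70698949-70700616, plus strand), usually present in resting cells, was at 539, 469, 501, 463, 415 and 314 TMM CPM, and was the only gene of the 9 with its highest value in the naïve library. With library totals only, 4 of its 5 ratios to that library turned positive, and the ratio with both drugs was -0.13. Strand use in counting is not given, and Jun shares 232 exon bases with antisense Junos, Junb 173 with Prdx2 and Jund 877 with Gm11175, so reads there cannot be told apart.

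Batf (chr12:85686669-85709087, plus strand) was at 112 TMM CPM in the naïve CD4 control, 179 in No treatment, 191 in MEP1+CMC, 112 in MEP1+Metformin, 139 in MEP1+Rapamycin and 134 in MEP1+Metformin+Rapamycin. MEP1+Metformin and the naïve library did not differ beyond counting error on this scaling. With library totals only, MEP1+Metformin stood at a log2 ratio of 0.68 to the naïve library. Batf3 (chr1:191097847-191108945, plus strand), best known from dendritic cells, had 17 to 91 counts, or 0.520 to 1.58 TMM CPM, and no 2 neighbouring libraries in its order differed beyond counting error. Libraries further apart did: Batf3 was 3.04-fold lower with both drugs than in No treatment (log2 -1.60, -2.26 to -0.99). It was the 1 gene of the 9 that failed the filter of 2 TMM CPM with 10 counts in at least 1 library, so 8 of 9 entered the counts and tests below. Atf3 (chr1:191170296-191218039, minus strand), a stress-induced factor that often represses, was at 3.34, 25.3, 11.7, 7.62, 4.83 and 3.26 TMM CPM in the same order. Its No treatment value stood apart from all others, and the library with both drugs was at the naïve level within counting error, though at a log2 ratio of 0.61 to it with library totals only.

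**Figure D2:**
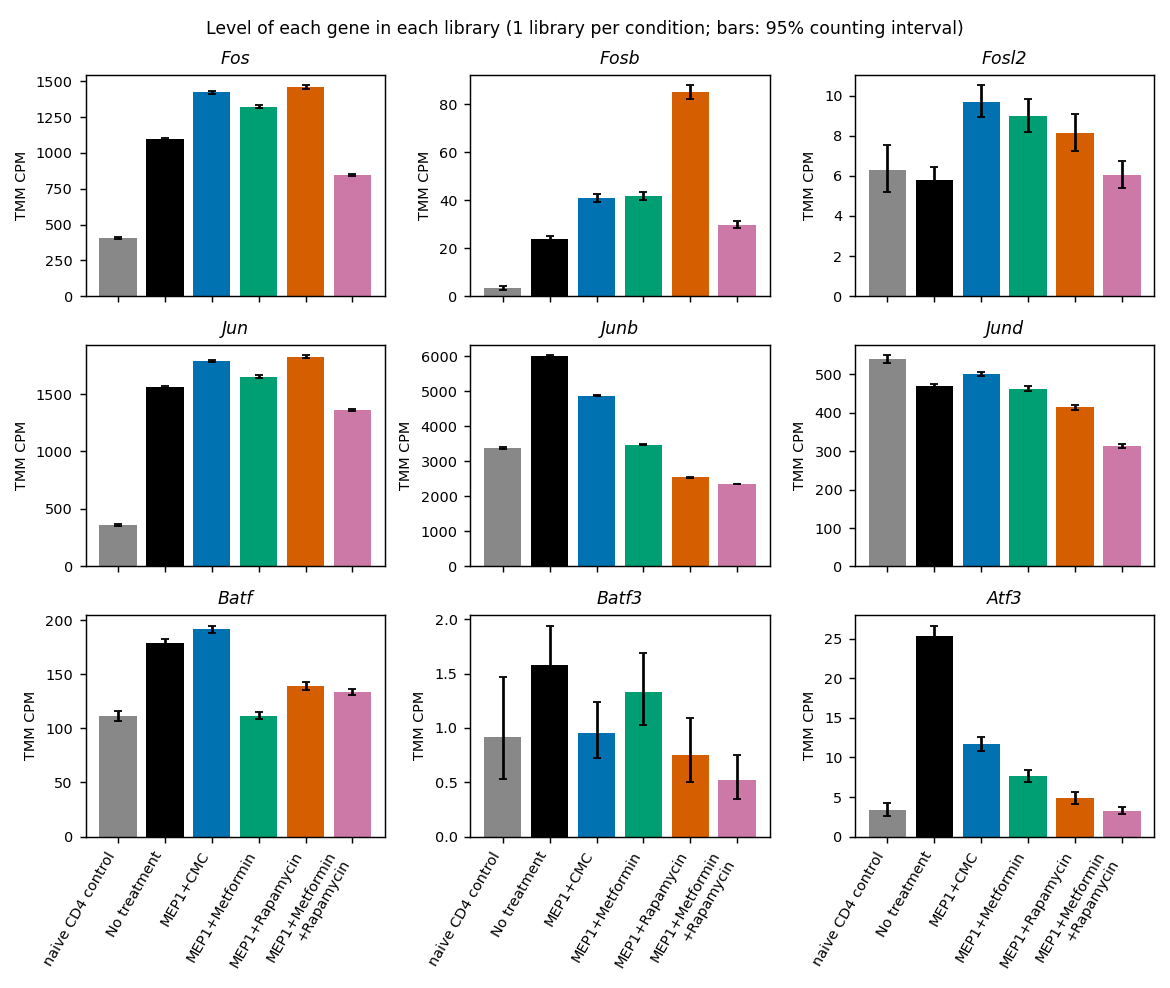
TMM CPM (vertical axes, from 0) of each of the 9 genes in the 6 libraries, with 95% counting intervals. Atf3 and Junb fall from No treatment to the rapamycin libraries, Fosb peaks at 85.0 in MEP1+Rapamycin, and Fos and Jun are lowest in the naïve library.

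Cells that had been transferred, immunized and challenged but not treated carried more Fos, Fosb, Jun and Atf3 RNA than naïve cells. A gene was counted as higher or lower when its ratio was at least 2-fold and the exact 95% Clopper-Pearson counting interval excluded no change. With 1 library per condition such a ratio compares libraries, and the interval covers counting error only. Between No treatment and the naïve CD4 control, 4 of 8 genes were higher and 0 lower, where 16.4% of the 12838 genes tested passed as higher and 7.54% as lower. Atf3 was 7.59-fold higher (log2 ratio 2.92, interval 2.56 to 3.32), Fosb 6.87-fold, Jun 4.30-fold (log2 2.11, 2.07 to 2.14) and Fos 2.70-fold (log2 1.44, 1.40 to 1.47). Junb at 1.77-fold and Batf at 1.60-fold did not reach 2-fold. Both did with library totals only (log2 1.24 and 1.10), which gave 6 of 8 genes as higher, where 3231 of the 12838 genes passed as higher. Fosl2 and Jund had log2 ratios of -0.12 and -0.20, and both turned positive, at 0.30 and 0.22, when only library totals were used for scaling. The median over the 8 genes was a log2 ratio of 1.13, against 0.08 over all genes tested.

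The difference from naïve cells was not the same size in each treated library. Fos, Fosb and Jun were at least 2-fold above the naïve level in all 5 transferred libraries, with Fosb between 6.87-fold and 24.7-fold, Jun between 3.75-fold and 5.02-fold and Fos between 2.09-fold and 3.60-fold. Atf3 passed in No treatment, MEP1+CMC and MEP1+Metformin but was 1.45-fold in MEP1+Rapamycin and 0.978-fold with both drugs. With library totals only it passed in MEP1+Rapamycin too (log2 1.22). On that scaling Batf (1.30), Fosl2 (1.15) and Junb (1.05) passed in MEP1+CMC, and Fosl2 (1.19) in MEP1+Metformin. In MEP1+Rapamycin Fosl2 (1.06) passed as well, and Batf lay just past 2-fold. Shares of all genes on that scaling are not given here for these pairs. Of all genes tested, 19.8% were higher than naïve in MEP1+CMC, 21.0% with metformin, 18.4% with rapamycin and 20.5% with both drugs. These ratios share the naïve library.

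MEP1 with vehicle went with less Atf3. Between MEP1+CMC and No treatment, 1 of 8 genes was lower and 0 higher, where 3.72% of genes passed as lower and 7.76% as higher, and that gene was Atf3, 2.17-fold lower (log2 -1.12, -1.25 to -0.99). Fosb and Fosl2 were at 1.73-fold and 1.67-fold the No treatment level, Fos at 1.30-fold, Jun at 1.15-fold, and Jund and Batf at 1.07-fold. Junb was 1.23-fold lower. The median was 0.15 on the log2 scale, against -0.04 over all genes.

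Markers of macrophages moved with that difference. All 15 macrophage and monocyte genes were higher in No treatment than in the naïve CD4 control by the same size rule, and all 15 were lower again in MEP1+CMC. Their summed level was 4228 TMM CPM in No treatment, 96.2 in the naïve CD4 control and 545 to 906 in the 4 MEP1 libraries. Lyz2, the macrophage lysozyme, was at 16.8, 1759, 325, 142, 80.3 and 120 TMM CPM in the order of the Fos values above. C1qa, a complement subunit of tissue macrophages, was at 3.88, 104, 21.6, 17.1, 23.1 and 21.4, and Cd14 and Fcgr1 had 0 counts in the naïve library. Haemoglobin Hba-a1 was at 741 TMM CPM in No treatment, 163 in the naïve CD4 control, 156 in MEP1+CMC and at most 41.1 in the drug libraries, and the 8 red cell and platelet genes summed to 1701 in No treatment. The dendritic cell list, which bears on Batf3, summed to 1107 TMM CPM in No treatment and 343 to 605 elsewhere, while its defining genes Xcr1, Clec9a and Zbtb46 stayed at or below 5.59. The part of these cells in the Atf3, Junb and Batf3 values was not tested.

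Metformin alone left all 8 genes within 2-fold. Between MEP1+Metformin and MEP1+CMC, 0 of 8 passed, where 5.63% of genes did. Batf was 1.71-fold lower (log2 -0.78, -0.82 to -0.73), Atf3 1.53-fold lower and Junb 1.40-fold lower. Fos, Fosl2, Jun and Jund each had a log2 ratio of -0.11 on this scaling, and all 4 turned positive with library totals only, and Fosb was at 0.03.

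Rapamycin alone went with more Fosb and less Atf3. Between MEP1+Rapamycin and MEP1+CMC, 1 of 8 genes was higher and 1 lower, where 5.15% of genes passed as higher and 5.83% as lower. Fosb was 2.08-fold higher (log2 1.06, 0.98 to 1.13) and Atf3 2.42-fold lower (log2 -1.27, -1.52 to -1.03). Junb was 1.91-fold lower, just inside 2-fold, and Batf 1.38-fold lower. Fos and Jun were at 1.03-fold and 1.02-fold. With DESeq2 size factors every ratio of this pair moved up by 0.13 on the log2 scale, and the part of passing genes that was higher went from 46.9% to 57.8%.

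With both drugs, all 8 genes lay below MEP1+CMC. Between MEP1+Metformin+Rapamycin and MEP1+CMC, 2 of 8 were lower and 0 higher, where 3.68% of genes passed as lower and 3.01% as higher. Atf3 was 3.57-fold lower (log2 -1.84, -2.08 to -1.60) and Junb 2.07-fold lower (log2 -1.05, -1.06 to -1.04). Junb fell short of 2-fold, at -0.93, with library totals only. Fos was 1.68-fold lower, Fosl2 1.60-fold, Jund 1.59-fold, Batf 1.43-fold, Fosb 1.37-fold and Jun 1.31-fold. The median of the 8 log2 ratios was -0.68, against -0.01 over all genes tested.

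**Figure D3:**
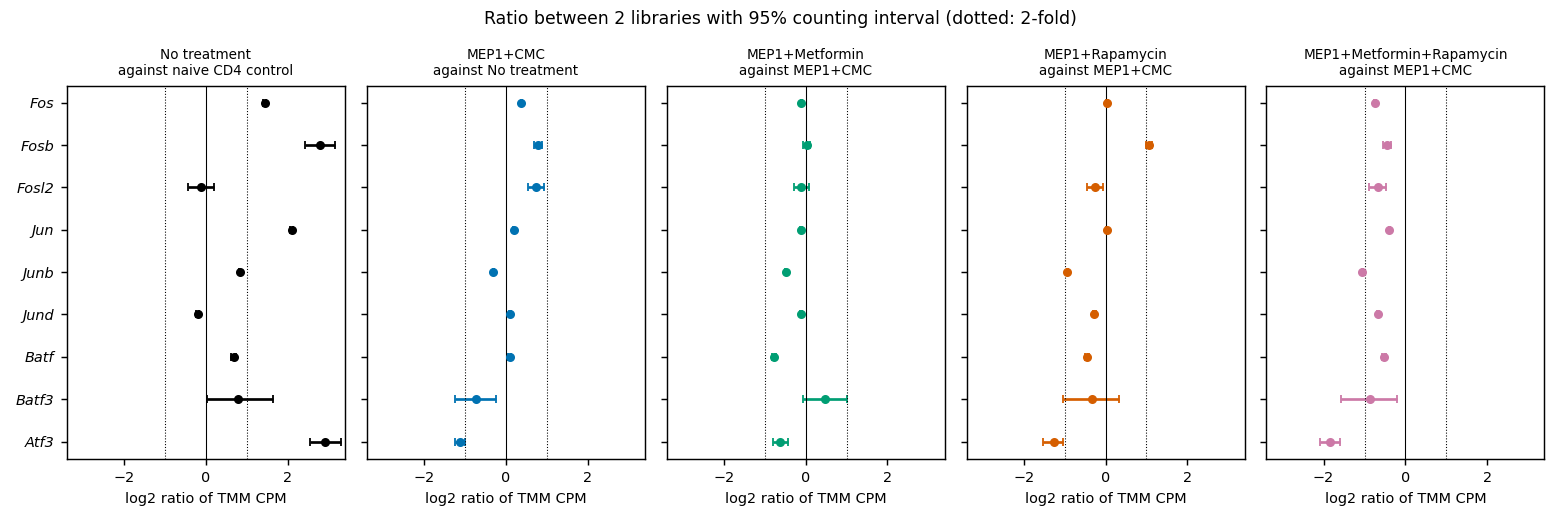
Log2 ratio of TMM CPM (horizontal axes) for each of the 9 genes in 5 pairs of libraries, with 95% counting intervals and dotted lines at 2-fold. The points sit to the right for Fos, Fosb, Jun and Atf3 against naïve, and all lie left of 0 for both drugs against MEP1+CMC.

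Set against the single drugs, the library with both drugs was lower in 7 of the 8 genes for metformin and in all 8 for rapamycin, mostly by less than 2-fold. Against MEP1+Metformin, 1 of 8 passed as lower (Atf3, 2.33-fold), where 1.71% of genes did and 1.27% passed as higher, and Fos was 1.56-fold lower, Fosl2 1.49-fold, Junb 1.48-fold, Jund 1.47-fold and Fosb 1.40-fold. Batf was the exception at 1.20-fold higher. Batf3, outside the filter, went from 67 to 29 counts, a 2.55-fold lower level. Against MEP1+Rapamycin, 1 of 8 passed as lower (Fosb, 2.84-fold), where 3.01% of genes did and 3.33% passed as higher, and Fos was 1.72-fold lower, Atf3 1.48-fold and Jun 1.34-fold. Junb and Batf were within 1.08-fold. Markers of B cells moved in the opposite direction: 6 of 8 were higher with both drugs than with metformin (median log2 ratio 2.33) and 6 of 8 than with rapamycin (1.64), and 7 of 8 were higher than in MEP1+CMC (1.28). Of 5 plasma cell genes, 3 were higher than with metformin, 2 than with rapamycin and 0 than in MEP1+CMC. The 9 B cell genes summed to 897 TMM CPM with both drugs, 605 with metformin, 710 with rapamycin and 849 in MEP1+CMC. Their part in the values of the 8 genes was not tested. Against MEP1+Rapamycin, DESeq2 size factors took the part of passing genes that was higher from 52.5% to 37.9%.

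Pooling libraries gave the only tests with a spread between samples. In edgeR's quasi-likelihood fit of the 5 transferred libraries against the naïve one, 2 of 8 genes rose and 0 fell, where 4.19% of genes rose and 5.58% fell. Jun rose by a log2 fold change of 2.17 (SE 0.32, edgeR adjusted p = 0.0052) and Fos by 1.60 (SE 0.37, edgeR adjusted p = 0.028), each higher in 5 of 5 transferred libraries. Fosb had the largest estimate, 3.67 (SE 1.00, edgeR adjusted p = 0.070), and was higher in 5 of 5 as well. The Fos call was lost without MEP1+CMC (edgeR adjusted p = 0.050) and without MEP1+Metformin (0.051), and Fosb was called without No treatment (0.024) and without MEP1+Rapamycin (0.020). DESeq2 called 3 of 8, with Fosb at an adjusted p of 2.9e-08, where 2147 of 12838 genes rose and 1581 fell. With a filter of 2 CPM in every library, edgeR called Fosb (adjusted p = 0.038), where 725 of 10016 genes rose and 1079 fell. With library totals only, edgeR called Fosb too (adjusted p = 0.029), where 2482 of 12838 genes rose and 190 fell. Batf was called there as well, besides Fos and Jun, and in no other setting of this fit. The spread in this fit includes the differences between treatments, and it rests on 1 naïve library.

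In the edgeR fit of the 4 MEP1-treated libraries against No treatment, 0 of 8 genes were called, where 1.90% of genes were. Atf3 had a log2 fold change of -1.88 (SE 0.52, edgeR adjusted p = 0.14) and was lower in 4 of 4 libraries. Junb, lower in 4 of 4, had -0.86 (SE 0.38, edgeR adjusted p = 0.29). At an unadjusted p below 0.05 edgeR had 1 of 8, Atf3, where 2238 of 12838 genes passed. DESeq2 called 1, Atf3 again, with an adjusted p of 0.030, where 877 of 12838 genes rose and 272 fell. Without MEP1+CMC, edgeR called Atf3 as well, at -2.28 (adjusted p = 0.043). In the same fit 13 of the 15 macrophage and monocyte genes fell.

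Among the 4 MEP1 libraries, neither drug term of the additive edgeR fit called any of the 8 genes, where 0.164% of genes were called for metformin and 0.203% for rapamycin. The metformin estimates of all 8 were below 0, from -0.74 for Fosb to -0.26 for Jund, with edgeR adjusted p from 0.68 to 0.84. At an unadjusted p below 0.05, edgeR had 0 of 8 for metformin, where 923 of 12838 genes passed. DESeq2 called 0 of the 4 to which it gave an adjusted p (Fos, Jun, Junb and Jund), where 10 genes rose and 30 fell. For rapamycin, 2 of 8 had an unadjusted edgeR p below 0.05, where 808 of 12838 genes did. They were Atf3 at -1.25 (SE 0.31, edgeR adjusted p = 0.15) and Junb at -0.75 (SE 0.26, edgeR adjusted p = 0.51). DESeq2 called Junb alone of the 8, with an adjusted p of 0.0064, where 24 genes rose and 53 fell. These fits have 1 residual degree of freedom, which is the departure from additivity.

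**Figure D4:**
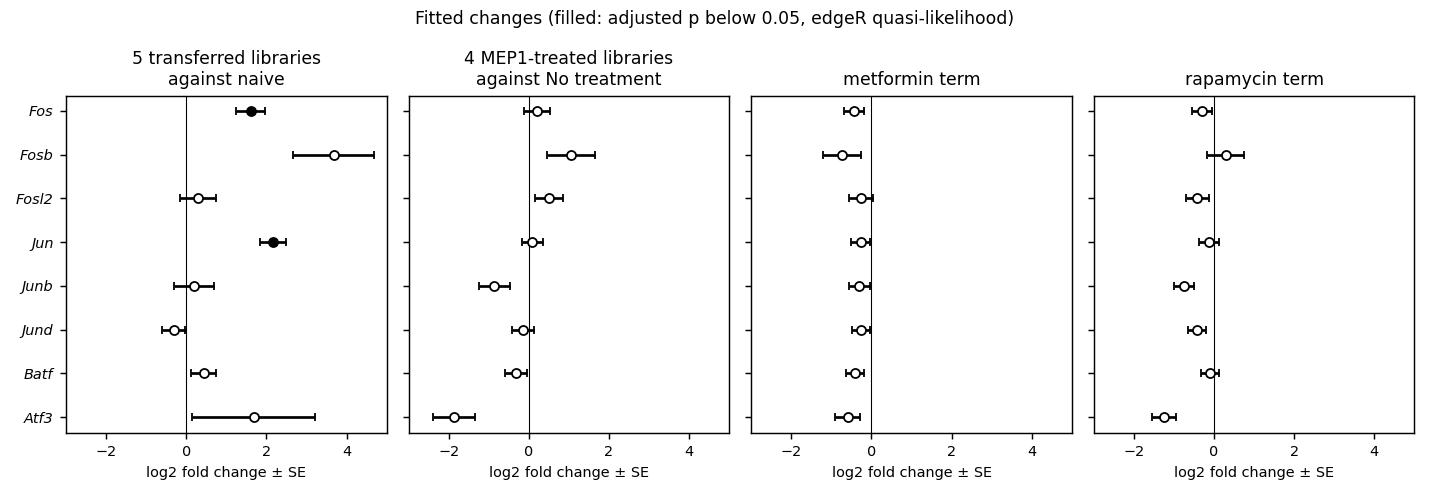
Log2 fold change ± SE (horizontal axes) of the 8 genes that passed the filter in the 4 edgeR comparisons; filled points have an adjusted p below 0.05. The only filled points are Fos and Jun in the comparison of 5 transferred libraries with the naïve one.

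The partners and the wider family were read from lists. Irf4, the partner of BATF in effector T cells, was at 5.71, 20.6, 25.0, 19.4, 13.1 and 18.8 TMM CPM in the order of the Fos values above, and it rose in transferred cells by 1.77 on the log2 scale (SE 0.43, edgeR adjusted p = 0.032). Irf8 was at 22.3, 59.0, 69.4, 33.7, 28.5 and 25.5, and all 3 drug libraries were over 2-fold below MEP1+CMC. Among 20 other AP-1 and bZIP factors that passed the filter, 4 were higher and 2 lower in No treatment than in naïve cells, shares of 20 genes that lie near the 16.4% and 7.54% over all genes. Among those higher was Maf, the c-MAF factor of helper cells, at 62.2 against 0.484 TMM CPM. Against MEP1+CMC, 0 of the 20 were higher in any drug library. With metformin 2 were lower (382 of 12838 genes were), with rapamycin 4 (5.83% of all genes) and with both 6 (3.68% of all genes). Jdp2, which encodes a JUN-dimerizing repressor, was at 23.3 TMM CPM in MEP1+CMC, 8.23 with metformin, 3.29 with rapamycin and 7.08 with both, and Nfil3, a repressor of cytokine genes in helper cells, was at 49.3, 22.5, 16.0 and 14.9. In the edgeR fit against naïve cells 2 of the 20 rose, Maf and Cebpb, and 0 fell, where 4.19% of all genes rose and 5.58% fell.

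Kinases and factors upstream of AP-1 and the feedback inhibitors of these kinases were counted separately. Of 20 genes of the MAP kinase route, 1 was lower in No treatment than in naïve cells, where 7.54% of all genes were. It was Mapk3, the ERK1 kinase, at 31.5 against 65.2 TMM CPM. Between MEP1+CMC and No treatment 0 passed. The same held in the 5 pairs between drug libraries and MEP1+CMC or each other that are described above. In the 4 MEP1 libraries against the naïve one, 1 or 2 of the 20 were lower, Mapk3 in all 4 and Srf in the 2 that had metformin. Of all 12838 genes, 1256 were lower than naïve in MEP1+CMC, 1628 with metformin, 1170 with rapamycin and 1327 with both drugs. In the edgeR fit against naïve cells, Mapk3 and Srf fell and 0 of the 20 rose, where 5.58% of all genes fell and 4.19% rose. Of 10 MAP kinase feedback genes, 4 were higher in No treatment than in naïve cells, where 16.4% of all genes were: Spry1, Dusp4, Dusp1 and Dusp6. Dusp1, a phosphatase that switches off MAP kinases, was at 215 TMM CPM in the naïve CD4 control, 1191 in No treatment, 1755 in MEP1+CMC, 1330 in MEP1+Metformin, 843 in MEP1+Rapamycin and 749 with both drugs. It rose in the edgeR fit against naïve cells by 2.45 (SE 0.51, adjusted p = 0.020), with Dusp4 and Spry1. Against MEP1+CMC, 0 of the 10 passed with metformin (5.63% of all genes did). With rapamycin 4 were lower (5.83% of all genes) and with both 3 (3.68% of all genes).

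Genes that T cells are known to express in dependence on AP-1 or BATF were mostly higher in transferred cells. Of 16 that passed the filter, 14 were higher in No treatment than in naïve cells and 0 lower, with a median log2 ratio of 3.85. Of all genes, 16.4% were higher and 7.54% lower in that pair. Ifng, the type 1 helper cytokine, was at 0.161 TMM CPM in the naïve library and 63.8 in No treatment, and Il21 at 0.0538 and 13.0. MEP1+CMC had 7 higher and 2 lower than No treatment, where 7.76% and 3.72% of all genes were. Prdm1, the BLIMP-1 repressor, was at 56.6 against 14.0, and Il10 at 43.3 against 12.2. Of all genes, 382 of 12838 were lower than in MEP1+CMC with metformin, 5.83% with rapamycin and 3.68% with both. Of the 16, 5 were lower than in MEP1+CMC with metformin, 8 with rapamycin and 7 with both, and 0 were higher. Ifng was then at 74.4, 17.5 and 25.4 TMM CPM against 199, and Il10 at 7.16, 2.78 and 2.40 against 43.3. The edgeR fit called 5 of the 16, among them Ctla4 and Icos, as risen against naïve cells, where 4.19% of all genes rose.

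Dissociation and heat stress genes were set beside the 9 because sorting can induce Fos, Jun and Atf3. Of 29 stress genes that passed, 13 were higher in No treatment than in naïve cells and 0 lower, where 16.4% and 7.54% of all genes were. Their median log2 ratio was 0.88, against 0.08 over all genes. The 30 genes of the list summed to 8127 TMM CPM in the naïve CD4 control, 15888 in No treatment, 13863 in MEP1+CMC, 11563 in MEP1+Metformin, 10729 in MEP1+Rapamycin and 9478 with both drugs. The sum therefore ran in the same order of libraries as Junb and Atf3 among the transferred cells. Egr1, an immediate early factor, was at 144, 1078, 603, 340, 157 and 168 TMM CPM, and fell with rapamycin in the additive edgeR fit by 1.48 on the log2 scale (SE 0.25, adjusted p = 0.015). Nr4a1, an early gene of antigen receptor signalling, was at 185, 829, 409, 379, 145 and 153, and fell with rapamycin by 1.40 (SE 0.22, edgeR adjusted p = 0.0074). Nr4a2, of the same list of antigen receptor response genes, fell with rapamycin too, by 1.56 (SE 0.25, edgeR adjusted p = 0.013). In that fit 2 of the 15 genes of the list fell and 0 rose, where 19 of 12838 genes fell and 7 rose. Between pairs of libraries, genes of the list took both directions. Of 15 antigen receptor response genes, 3 were higher in MEP1+CMC than in No treatment and 1 was lower, where 7.76% and 3.72% of all genes were. The 3 were Nr4a2 at a log2 ratio of 2.32, Rgs16 at 2.10 and Tnfrsf9 at 1.72, and the 1 lower was Nr4a1. Between MEP1+Rapamycin and MEP1+CMC, 5 of the 15 were lower (5.83% of all genes were) and 1 was higher (5.15% of all genes), Lad1 at 2.41. Against naïve cells, 8 were higher and 2 lower in No treatment, where 16.4% and 7.54% of all genes were.

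The heat shock genes Hspa1a and Hspa1b took another order of libraries. Hspa1a was at 52.5 TMM CPM in the naïve CD4 control, 51.4 in No treatment, 87.1 in MEP1+CMC, 50.4 in MEP1+Metformin, 209 in MEP1+Rapamycin and 109 with both drugs. Hspa1b, a near-identical copy whose reads may be split between them, was at 222, 204, 325, 135, 536 and 271. Both were highest in MEP1+Rapamycin, where Fosb peaked, and neither was over 2-fold above naïve in No treatment, where Fos, Fosb, Jun and Atf3 were. The summed stress list did not peak in MEP1+Rapamycin. Of its 29 genes, 1 was higher and 4 lower there than in MEP1+CMC, and 24 did not pass. Their median log2 ratio was -0.32, against -0.13 over all genes tested. Of all genes, 5.15% were higher and 5.83% lower in that pair. Hspa1a rose with rapamycin by 1.19 in the additive edgeR fit (SE 0.21, adjusted p = 0.013). Time between sacrifice and lysis is not given, and the part of handling in the Fos, Fosb, Jun, Junb and Atf3 values was not tested.

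**Figure D5:**
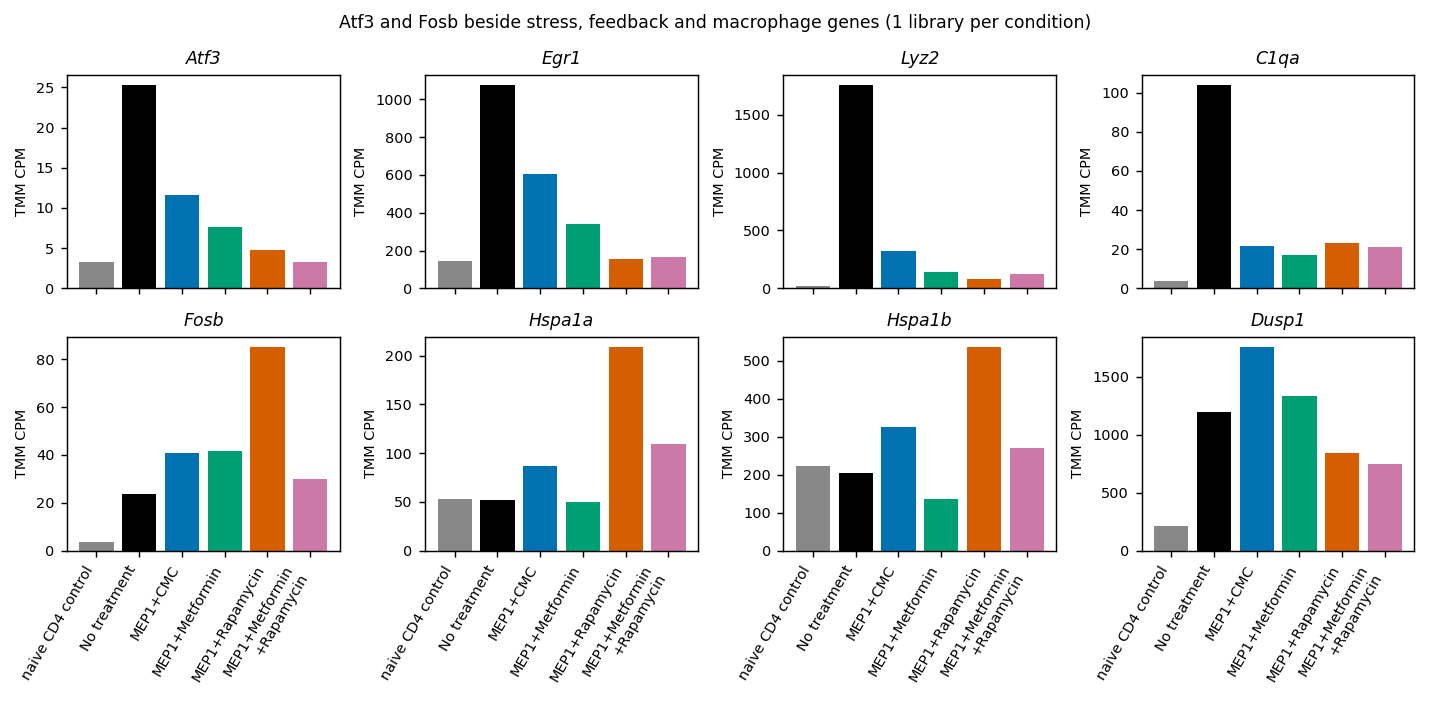
TMM CPM (vertical axes, from 0) of Atf3 and Fosb beside the stress genes Egr1, Hspa1a, Hspa1b and Dusp1 and the macrophage genes Lyz2 and C1qa, 1 library per bar. Atf3, Egr1, Lyz2 and C1qa are highest in No treatment, whereas Fosb, Hspa1a and Hspa1b are highest in MEP1+Rapamycin.

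Genes with the pattern nearest to Fos, Jun and Batf were sought among 8619 genes with a mean of at least 10 TMM CPM. The measure was the root mean square difference of log2 values over the 6 libraries after centring each gene. Nearest to Fos were Matk (0.19), 1810026B05Rik (0.20), Ccnl1 (0.20), H1f0 (0.21) and Plk2 (0.22), and Jun stood at place 14 (0.26). Nearest to Jun were Tyms (0.15), Marveld1 (0.17), Atxn1 (0.17), Plekha8 (0.18) and Pdcd1lg2 (0.19), with Fos at place 33. Nearest to Batf were Armc3 (0.09), Nudt22 (0.09), Gmnn (0.10), Stard10 (0.11) and Otulin (0.12). Junb was 3581st from Batf (0.37), and Fosb 5543rd from Fos (0.79). All comparisons rest on the same 6 libraries.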

How the data were processed

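Per the submitters' processing notes, reads were trimmed with Trimmomatic 0.36, aligned to GRCm38 with STAR 2.5.2b and counted with featureCounts of Subread 1.5.2. The authors deposited raw counts per Ensembl gene, 1 file for each of 6 libraries, and strand and multi-mapping settings are not given in the sources used here. Symbols matched 48970 of 49315 genes. Counts were scaled by TMM (edgeR 4.0.16, R 4.3.3), and genes with 2 TMM CPM and 10 counts in at least 1 library were kept (12838). With 1 library per condition, pairs were compared as TMM log2 ratios with exact 95% Clopper-Pearson intervals, which cover counting error only, since PCR reads are not independent molecules. The 4 edgeR quasi-likelihood fits pooled libraries, with Benjamini-Hochberg adjustment over all genes kept and p-values below 0.05 called. DESeq2 1.42.0 was an alternative, along with other scalings, filters and left-out libraries. The edgeR fits were tested on simulated counts, and DESeq2 was not. Named genes were the 9 genes, up to 4 genes per list with the largest ratio past the rule, fixed cell type markers, and the 5 nearest by pattern. Hspa1b in comparisons where it was not among those 4, and Nr4a1 in pairs where it was not, were named after their values were seen. So were Srf, Nr4a2, Ctla4 and Icos as called genes. The 9 genes and the lists were chosen with earlier results of these data known. Promoter windows came from RefSeq (GRCm38.p6), which matched all 9 genes. Figures were drawn with matplotlib 3.10.9.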

Additional observations from a re-analysis of the deposited data

Results flagged for a closer look

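Rapamycin differences of 4 genes had opposite signs without and with metformin, with both counting intervals excluding no change. Fos had a log2 ratio of 0.04 without metformin (MEP1+Rapamycin against MEP1+CMC) and -0.64 with it (MEP1+Metformin+Rapamycin against MEP1+Metformin). Fosb had 1.06 and -0.48, and Jun 0.03 and -0.28. Batf went the other way, with -0.46 and 0.26. With 1 library per condition the difference between the 2 ratios was not tested, and the values for Fos and Jun without metformin are close to 0. MEP1+CMC, the only library of the 4 with Xist above 0.486 TMM CPM, enters only the ratios without metformin.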

How the results depend on the processing

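No paired analysis was possible because each condition has 1 library and the labels give no shared replicate number. Counts of the 8 genes past the 2-fold rule stayed within 1.5 times of the reported ones in 7 pairs and 5 alternatives, except 1 gene instead of 2 for both drugs against MEP1+CMC with library totals only, where Junb fell short, and 2 instead of 1 for both drugs against MEP1+Metformin with no filter, which lets Batf3 in. In the fit against the naïve library, 4 genes were called with library totals only (all genes: 2482 rose and 190 fell, against 538 and 717), and leaving out 1 library gave 1 to 3. DESeq2 called 1 gene, Atf3, against No treatment (all genes: 877 rose and 272 fell) and 1, Junb, for rapamycin (24 rose and 53 fell). A filter of 2 CPM in every library called 1, Atf3, for rapamycin (38 rose and 99 fell). Leaving out 1 library in the fit against No treatment gave 0 to 1. Without MEP1+CMC, a choice made after seeing the data, as was the older form of the edgeR fit, which called Fosb against naïve (adjusted p = 0.037), a fit with only metformin as a term called 1 gene, Fosb, at -1.25 (edgeR adjusted p = 0.020), among 1961 genes that rose and 640 that fell. The causes were not tested beyond what each setting leaves out. Using library totals only moved every No treatment ratio to naïve by 0.42 and took the higher part of passing genes from 68.6% to 87.6%; it took that part from 47.2% to 62.5% for metformin, from 46.9% to 60.7% for rapamycin and from 45.0% to 55.7% for both drugs, each against MEP1+CMC. No reported call of a gene changed sign under any alternative run. Depth limits Batf3 most, with 17 to 91 counts, and Fosb and Atf3 in the naïve library, with 64 and 62 counts.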
